A study of Mus musculus with 6 samples.

Results

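The 37 genes described here build, desaturate, take up, activate and store fatty acids. They were chosen by symbol from the 53735 genes of the deposited table, which holds mouse leukemia stem cells from bone marrow and from liver. All 37 were in the table and 36 reached the mean of 10 normalized counts needed for testing. The stearoyl-CoA desaturase gene Scd1 did not. A normalized count is a read count divided by 1 size factor per library, so that libraries of unequal depth can be compared.

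Both groups came from male C57 mice, per the labels, 13 days after leukemia cells had been transplanted, and no treatment was given. There were 3 libraries from bone marrow and 3 from liver. No animals are told apart by the labels, which speak of technical replicates. The p-values here therefore reflect library-to-library spread, which may be technical in part. Neither the type of leukemia nor the gate by which stem cells were isolated is stated by the labels.

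Cells make fatty acids from citrate. ATP citrate lyase splits citrate into acetyl-CoA, acetyl-CoA carboxylase turns acetyl-CoA into malonyl-CoA, and fatty acid synthase joins these units into palmitate. In the endoplasmic reticulum an elongation cycle lengthens the chain and stearoyl-CoA desaturases place a double bond in it. The desaturases FADS1 and FADS2, with some ELOVL elongases, turn dietary linoleic and alpha-linolenic acid into long polyunsaturated fatty acids. Fatty acids from outside enter with the help of CD36 and fatty acid transport proteins, are activated by acyl-CoA synthetases and are then built into phospholipids and triglycerides. The transcription factor SREBP-1, encoded by Srebf1, switches on many of these genes, and the liver is a main site of the pathway in the body.

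The bone marrow libraries held 15.4 to 18.5 M reads each, more than the liver libraries, which held 9.73 to 13.8 M. The sex-linked transcripts went against the label of male in replicate 1 and were mixed in replicate 3, while replicate 2 fitted it. Xist, which is active in female cells, stood at 4860 and 6229 normalized counts in replicate 1 of bone marrow and liver, at 4.28 and 1.42 in replicate 2 and at 2486 and 2425 in replicate 3. The sum of Eif2s3y, Uty, Kdm5d and Ddx3y, all on the Y chromosome, stood at 145 and 0, 2987 and 2675, and 1553 and 1634 in the same order. Replicate 3 thus held transcripts of both kinds in both tissues. It lay between replicates 1 and 2 for 43.7% of all genes tested in bone marrow and 50.8% in liver. Whether it is a pool of the others was not tested. If it were, each n = 3 below would stand for 2 independent libraries, with errors and intervals too narrow, so counts are also given without it. Of 12 hepatocyte markers 8 were at 0 reads in all 6 libraries, among them Alb, Ttr and Fabp1, and Apoa1, at 2285 to 5659 normalized counts, made up nearly all of their sum in both tissues (2668 to 5664 in bone marrow, 2303 to 3018 in liver). The 5 adipocyte markers summed to at most 7.11 and the 7 Kupffer cell markers to at most 10.9. The 7 liver endothelium markers summed to 69.4 to 96.1 in bone marrow and 5.69 to 59.0 in liver, and the 6 stellate cell markers to 372 to 664 and 204 to 265. Nearly all of the stellate cell sum came from Pdgfrb. Oit3 made up nearly all of the endothelium sum, except in liver replicate 2, where it stood at 2.84. Ptprb and Cdh5 of endothelium and Col3a1, Lrat and Reln of stellate cells had 0 reads in all libraries. Basophil and mast cell markers summed to 22775 to 27265 and 15907 to 24424, and erythroid markers to 6557 to 7277 and 4255 to 4812. Gata2 was the largest part of the basophil and mast cell sum, whose 8 genes went both ways. In liver over bone marrow Prss34 (log2 fold change 3.48) and Mcpt8 (0.89) were higher. Tpsb2 (-6.41), Fcer1a (-2.03), Cpa3 (-2.01), Cma1 (-1.86), Ms4a2 (-0.53) and Gata2 (-0.23) were lower. Prss34 (limma adjusted p = 0.016) and Tpsb2 (limma adjusted p = 0.0091) passed, and the others did not. Lymphocyte markers summed to 10345 to 11148 and 11445 to 11751, nearly all of it from Nkg7. All 8 stem and progenitor markers, Kit and Hoxa9 among them, reached the testing level, and their sum was 13590 to 14571 and 12709 to 13356. The 10 neutrophil markers summed to 143, 204 and 178 in bone marrow replicates 1, 2 and 3 and to 404, 3671 and 2105 in liver replicates 1, 2 and 3. Most of these liver sums came from Mpo (283, 2250 and 1328) and Elane (33.6, 631 and 350). Which cells carried the transcripts was not tested.

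No member passed the test between the tissues, and the separations that stood out were small or rested on scarce transcripts. In liver over bone marrow, Fads3 and Dgat2 stood above 2-fold, Scd2, Acsl1, Hacd2 and Slc27a4 at 1.23-fold to 1.39-fold, and Gpam at 0.725-fold. With limma on log2(normalized count + 1), Benjamini-Hochberg adjustment and an adjusted p under 0.05 as the threshold, 0 of the 36 members tested were called, against 1.01% of all 14298 genes tested (145 genes). edgeR's quasi-likelihood test on the recovered reads called 0 members, against 0.944% of all genes. DESeq2 on the recovered reads called 2 members, Fads3 and Scd2, or 5.56%, against 4.35% of all genes. At an unadjusted p under 0.05 there were 8 members (22.2%), against 15.7% of all genes. Without both replicate 3 libraries 0 members and 2 genes in all were called.

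The members were spread on both sides of no change. Of the 36 tested, 22 had a positive and 14 a negative log2 fold change of liver over bone marrow (61.1% positive, against 48.4% of all genes), with a median of 0.08, against -0.0092 over all genes. The tissues did not overlap in 11 of the 36 (30.6%), against 22.3% of all genes. In 9 of these all liver values were above all bone marrow values (25.0%, against 11.4% of all genes). They were Fads3, Dgat2, Hacd2, Slc27a4, Acsl1, Fads2, Scd2, Acaca and Hsd17b12. In the other 2, Gpam and Fabp5, every liver library lay below (5.56%, against 10.9%). Without both replicate 3 libraries 21 of 36 members were positive, 10 were separate and higher (27.8%, against 18.4% of all genes), the same 9 and Fasn, and Gpam and Fabp5 were separate and lower (5.56%, against 17.8%). The 95% confidence interval of the fold change, taken gene by gene without adjustment, lay within a 1.5-fold change either way for 21 of the 36 members and within a 2-fold change for 32.

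**Figure D1:**
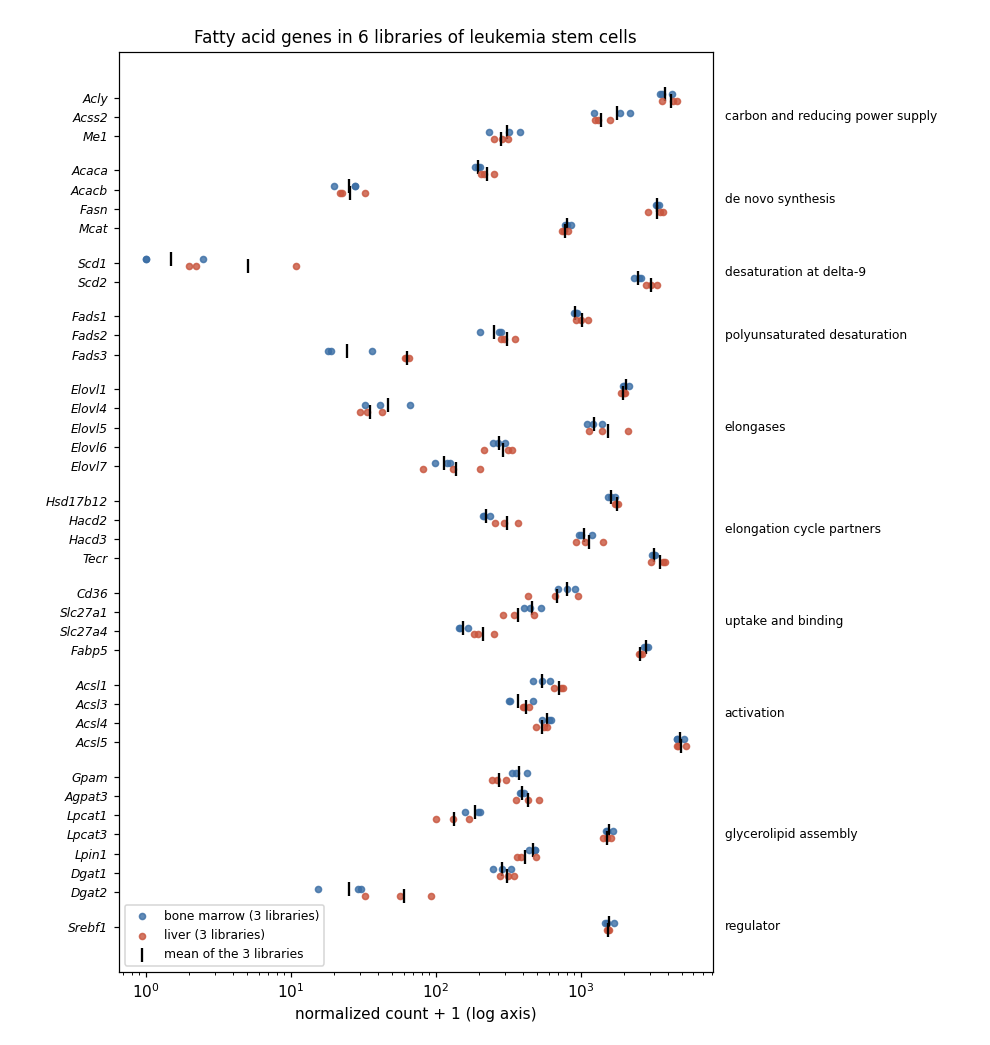
Normalized count + 1 on a log axis for the 37 genes in each of 6 libraries, grouped by step, with bone marrow points above liver points in each row and a black bar at the mean of 3 libraries. Levels differ far more between genes, from Scd1 near 0 to Acsl5 near 4853, than between tissues.

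**Figure D2:**
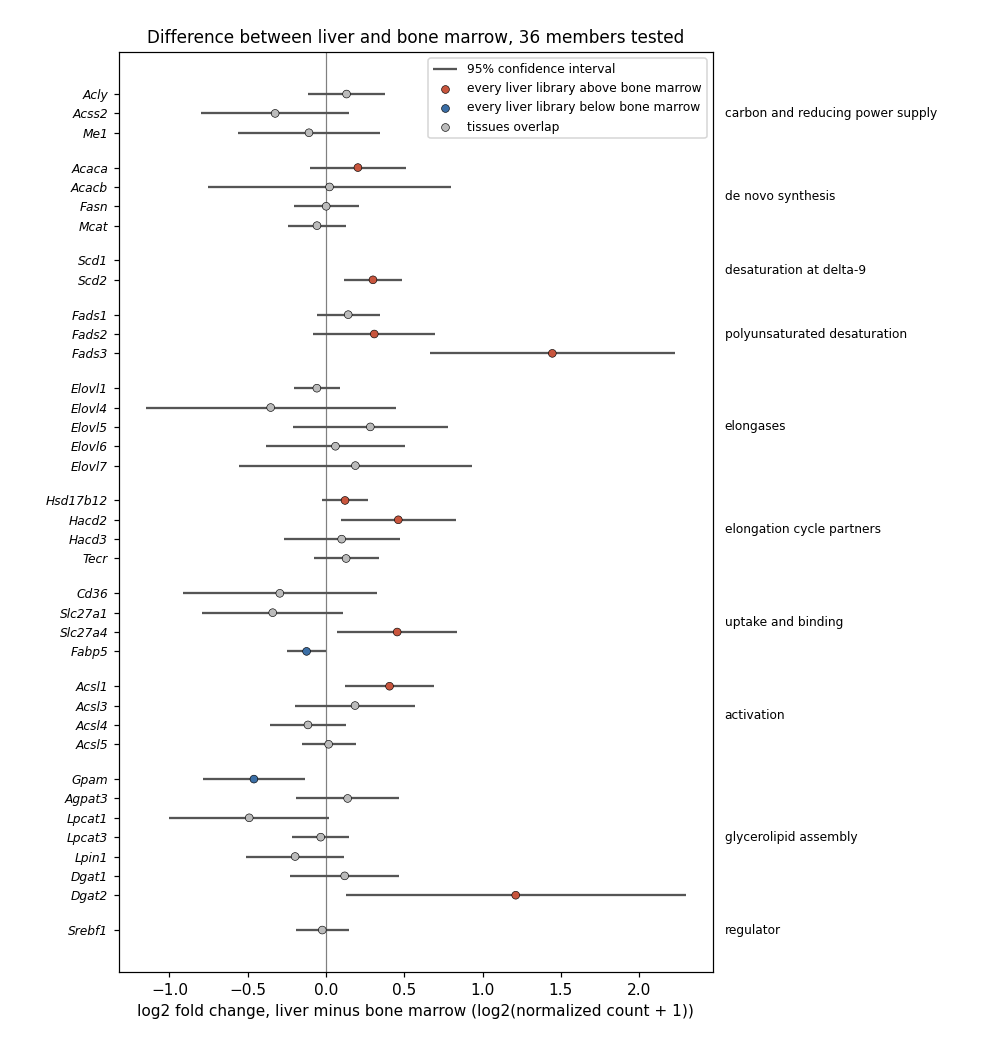
Log2 fold change of liver minus bone marrow for the 36 members tested, with 95% confidence intervals as lines. Red points mark the 9 genes whose liver libraries all lie above bone marrow, blue points the 2 that lie below and grey points the 25 that overlap. Fads3 and Dgat2 stand furthest to the right, with wide intervals.

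The promoters of the members with the largest positive and the most negative log2 fold change, among those whose tissues did not overlap and that have a promoter entry, are shown so that a reader can see what stands before genes at the 2 ends of the list. They are the 250 bases before the RefSeq start site on GRCm38.p6, 5′ to 3′ on the gene's own strand, for Fads3 at chr19:10041298-10041547 (plus strand) and for the first of 2 Gpam starts at chr19:55127239-55127488 (minus strand). Capitals mark a CCAAT box on either strand, read as CCAAT or ATTGG.
Fads3: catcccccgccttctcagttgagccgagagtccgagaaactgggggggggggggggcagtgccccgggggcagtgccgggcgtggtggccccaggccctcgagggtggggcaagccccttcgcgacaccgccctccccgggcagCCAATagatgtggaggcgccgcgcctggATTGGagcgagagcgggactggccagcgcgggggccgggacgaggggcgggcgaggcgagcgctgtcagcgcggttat
Gpam: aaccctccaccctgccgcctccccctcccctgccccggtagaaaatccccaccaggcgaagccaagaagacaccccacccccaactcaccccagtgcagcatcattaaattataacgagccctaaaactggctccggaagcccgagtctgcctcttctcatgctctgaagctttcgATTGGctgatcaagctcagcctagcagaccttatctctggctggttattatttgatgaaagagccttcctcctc
Fads3 held 2 such boxes, beginning 106 and 78 bases before the start, and Gpam held 1, beginning 74 bases before it. Neither window holds an annotated GENCODE M21 exon base. The base composition differed, with 74.4% G and C before Fads3 and 54.8% before Gpam.

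Promoter windows from 250 bases before to 50 bases after the start were found in RefSeq for 30 of the 37 members. None was found for Scd1, Scd2, Fads1, Fabp5, Dgat1, Dgat2 and Mcat, so their promoters were not searched. A CCAAT box, bound by the factor NF-Y, which works beside SREBP at many lipid genes, stood in 20 of the 30 (66.7%). Fasn, Acly, Srebf1, Acss2 and Me1 were among them. It stood in 41.1% of 27025 genes with such a window, expressed or not. Of the genes of the same pathway outside the member list, described below, 31 of 65 with a window held it. The E-box CACGTG, which reads the same on both strands, stood in 4 of the 30 (Elovl4, Elovl5, Hacd3 and Slc27a1) and in 8.09% of all genes. The classic sterol regulatory element, searched on both strands, stood in 0 of the 30 and in 0.27% of all genes. The consensus direct repeat read by LXR, also searched on both strands, stood in 0 of the 30 and in 0.0148% of all genes. Both forms were so rare among all genes that 0 of 30 says little about these members. A match of letters is a description of the window only. CCAAT boxes stood before Fasn, with a log2 fold change near 0, as they did before Fads3.

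Genes that supply acetyl-CoA and NADPH had log2 fold changes of either sign. Acly, ATP citrate lyase, stood at 3542, 4268 and 3611 normalized counts in bone marrow replicates 1, 2 and 3 and at 3631, 4585 and 4307 in liver. The tissues overlapped, with a log2 fold change of 0.13 ± 0.11 (SE). Acss2, the cytosolic enzyme that makes acetyl-CoA from acetate, stood at 2205, 1244 and 1878 in bone marrow and at 1586, 1313 and 1258 in liver, a log2 fold change of -0.32 ± 0.20 (limma adjusted p = 0.50). Bone marrow replicate 2 lay among the liver libraries. Of the exon bases of Acss2 9.12% are shared with its neighbours Acss2os, Ggt7 and Gss, so that some of its reads could belong to them. Me1, malic enzyme, a source of NADPH, averaged 310 ± 74.9 normalized counts across bone marrow, against 283 ± 32.1 in liver (SD, n = 3 each).

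The genes of palmitate synthesis had log2 fold changes close to 0. Fasn, fatty acid synthase, stood at 3474, 3287 and 3333 normalized counts in bone marrow and at 3676, 3541 and 2931 in liver. Its log2 fold change of 0.0011, with a 95% interval of -0.21 to 0.21, was the smallest in size of the 36 members. Acaca, the cytosolic acetyl-CoA carboxylase, stood at 200, 194 and 185 in bone marrow and at 250, 205 and 216 in liver, each liver library above each bone marrow library. Its log2 fold change was 0.20 ± 0.13 (SE), and limma gave an adjusted p of 0.52. Acacb, the carboxylase isoform at the mitochondrial surface whose malonyl-CoA restrains fatty acid oxidation, was scarce, at 24.1 ± 4.51 and 24.6 ± 5.83 (SD, n = 3 each), from 88 and 61 reads. Mcat, the malonyl transferase of the separate mitochondrial pathway, stood at 808 ± 38.9 and 776 ± 42.0. Per kilobase of exon, the mean bone marrow level was 307 normalized counts for Fasn, 11.3 for Acaca and 2.50 for Acacb, and the ranges of the 3 libraries did not overlap between these genes in either tissue.

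The delta-9 desaturases, which turn stearate into oleate, were represented by 1 of the pair. Scd2 stood at 2621, 2523 and 2324 normalized counts in bone marrow and at 2813, 3343 and 3049 in liver. All liver libraries lay above all bone marrow libraries, by 1.23-fold with a 95% interval of 1.08 to 1.40. The log2 fold change was 0.30 ± 0.080 (SE), and the limma adjusted p of 0.14 missed the threshold. DESeq2 gave an adjusted p of 0.040, and limma without liver replicate 1 gave 0.0499, both past the threshold, and over 17 alternatives the adjusted p ran from 0.0403 to 0.879. Scd1, the main desaturase of the liver itself, stood at 0, 0 and 1.49 in bone marrow and at 0.988, 9.95 and 1.20 in liver, from 2 and 9 reads in all. Most of those liver reads came from replicate 2. In bone marrow Scd2 reached 456 normalized counts per kilobase of exon and Scd1 0.101.

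The FADS and ELOVL genes, grouped here by family, held the largest difference of the list, that of Fads3. Fads3, a desaturase of the FADS cluster that acts on sphingoid bases, stood at 17.1, 35.1 and 17.8 normalized counts in bone marrow and at 60.3, 64.0 and 61.4 in liver. The 3 liver libraries were nearly level, while bone marrow replicate 2 stood above its 2 companions. The fold change was 2.65, and the log2 fold change was 1.45 ± 0.33 (SE) with an interval of 1.58 to 4.69 on the fold scale. It rests on 84 reads in bone marrow and 157 in liver. The limma adjusted p was 0.10 and that of DESeq2 0.032, and over 16 alternatives it ran from 0.0322 to 0.879. Leaving out each library in turn moved the log2 fold change only between 1.27 and 1.77, with no call by limma.

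Fads2 encodes the delta-6 desaturase that opens the polyunsaturated pathway. It stood at 200, 279 and 273 normalized counts in bone marrow and at 282, 294 and 350 in liver. The tissues were separate by a narrow margin, between 279 and 282, and the log2 fold change of 0.31 ± 0.17 (SE) had a limma adjusted p of 0.44. Fads1, the delta-5 desaturase that makes arachidonic acid, stood at 920 ± 22.7 in bone marrow and 1018 ± 98.4 in liver (SD, n = 3 each). Its libraries overlapped, since liver replicate 2 (931) lay below bone marrow replicate 1 (939). All 3 FADS genes had a positive log2 fold change, where 48.4% of all genes did, and 0 passed. Per kilobase of exon the order in bone marrow was Fads1 (191), Fads2 (76.1) and Fads3 (6.15), without overlap of libraries between neighbours, and in liver it was the same, with 212, 93.7 and 16.3. The 3 genes lie together on chromosome 19 of GRCm38 (GENCODE M21), Fads3 from 10041569 to 10060110 on the plus strand, Fads2 from 10062765 to 10101746 on the minus strand and Fads1 from 10182888 to 10196877 on the plus strand. None of the 3 shares an exon base with another annotated gene.

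**Figure D3:**
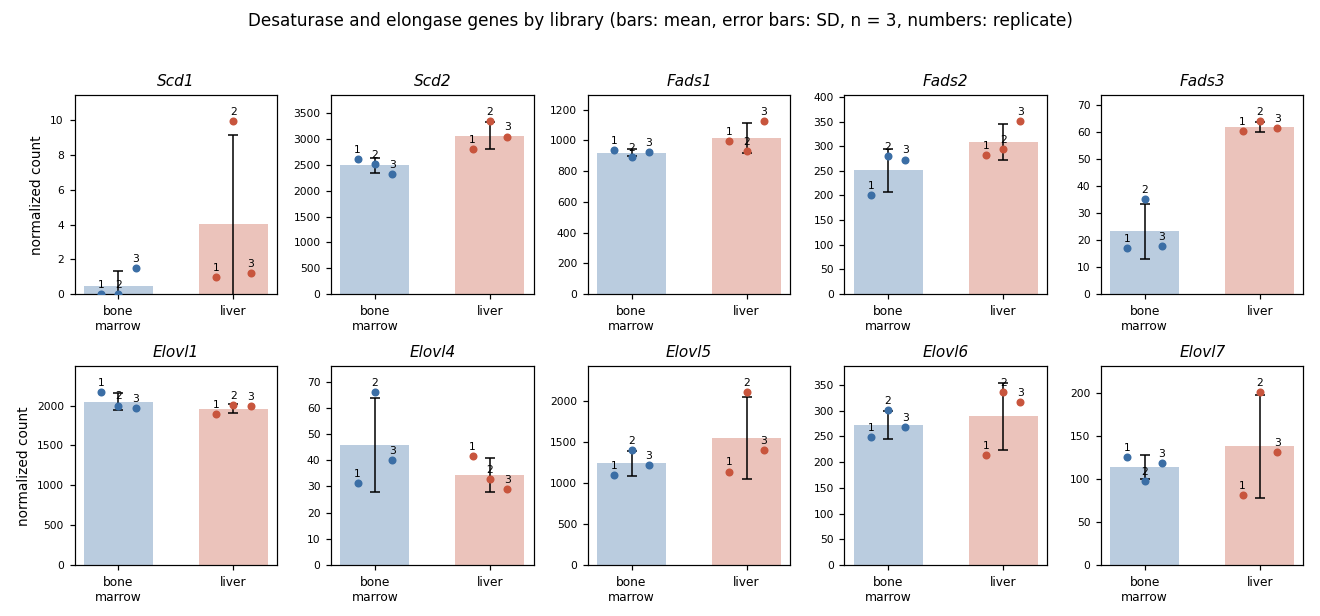
Normalized counts of the desaturase and elongase genes by library, with bars for the mean, error bars for the SD (n = 3) and numbers for the replicate, each panel on its own axis from 0. Fads3 shows the widest gap between tissues, Scd2 and Fads2 are narrowly separate, and in Elovl5 and Elovl7 liver replicate 2 stands alone at the top.

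The elongases, which carry out the first and rate-limiting step of each round of chain lengthening, overlapped between the tissues in all 5 cases. Elovl5, which lengthens polyunsaturated fatty acids, stood at 1100, 1402 and 1219 normalized counts in bone marrow and at 1141, 2108 and 1408 in liver. Liver replicate 2 alone lay well above the bone marrow libraries, and the log2 fold change of 0.28 ± 0.21 (SE) was 0.04 without it. Elovl7 had a like pattern, with 125, 97.6 and 118 in bone marrow and 81.0, 200 and 131 in liver, and its log2 fold change of 0.19 was -0.13 without liver replicate 2. Elovl4, which makes very long chains, was scarce, at 31.4, 65.9 and 40.2 in bone marrow and 41.5, 32.7 and 28.9 in liver. Its log2 fold change of -0.35 ± 0.34 (SE) had an interval of 0.450 to 1.36 on the fold scale and was -0.06 without bone marrow replicate 2. Elovl6, which takes palmitate to stearate, stood at 272 ± 27.1 and 289 ± 65.7 (SD, n = 3 each). Elovl1, for saturated and monounsaturated very long chains, stood at 2045 ± 107 and 1962 ± 61.4. Per kilobase of exon Elovl1 was the most abundant of the 5 in bone marrow (750), followed by Elovl5 (352), Elovl6 (42.3), Elovl7 (28.3) and Elovl4 (15.1), without overlap between neighbours. Taking FADS and ELOVL genes together by family, Fads3, Elovl1 and Elovl6 included, 6 of 8 had a positive log2 fold change. This share of 75.0% stood against 48.4% of all genes. Their median was 0.16, against 0.02 over the 28 other members tested. Without liver replicate 2 Elovl6 (-0.06) and Elovl7 (-0.13) were negative and Elovl5 was at 0.04, while the FADS genes stayed positive.

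The other enzymes of the elongation cycle had positive log2 fold changes in 4 of 4 genes, against 48.4% of all genes. They ran from 0.10 to 0.46, with 0 passing. Hacd2, a dehydratase of the third step, stood at 235, 214 and 211 normalized counts in bone marrow and at 257, 371 and 293 in liver. Its libraries did not overlap, the log2 fold change was 0.46 ± 0.16 (SE), and the limma adjusted p was 0.22. Hsd17b12, the ketoreductase of the second step, was also separate but by little, at 1627 ± 80.5 and 1769 ± 43.8 (SD, n = 3 each), a fold change of 1.09. Hacd3, a related dehydratase, stood at 1052 ± 119 and 1141 ± 250. Its log2 fold change of 0.10 was -0.07 without liver replicate 2. Tecr, the reductase that closes the cycle, stood at 3198 ± 91.8 and 3512 ± 415, and at 1460 per kilobase of exon in bone marrow it was the highest of the list on that scale.

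Genes of uptake and binding went in both directions and none passed. Slc27a4, a fatty acid transport protein with acyl-CoA synthetase activity, stood at 146, 166 and 144 normalized counts in bone marrow and at 184, 252 and 196 in liver. The lowest liver value was above the highest of bone marrow, with a log2 fold change of 0.45 ± 0.16 (SE) and a limma adjusted p of 0.25. Slc27a1, its relative best known from muscle and fat, had the other sign, at 446, 408 and 533 in bone marrow and 289, 475 and 347 in liver (log2 fold change -0.34 ± 0.19). Its tissues overlapped through liver replicate 2. Cd36, the scavenger receptor that takes up long-chain fatty acids, stood at 692, 918 and 805 in bone marrow and at 434, 958 and 666 in liver. Its liver libraries spanned 2.21-fold, and its log2 fold change of -0.30 ± 0.27 was -0.0020 without liver replicate 1. Fabp5, a cytosolic carrier of fatty acids, had a small and even difference. It stood at 2896, 2727 and 2801 in bone marrow and at 2557, 2647 and 2525 in liver, all below bone marrow, with a fold change of 0.917 and a limma adjusted p of 0.32.

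Among the long-chain acyl-CoA synthetases, which trap fatty acids in the cell as acyl-CoA, Acsl1 had the largest difference. It stood at 540, 465 and 616 normalized counts in bone marrow and at 656, 755 and 727 in liver. The tissues were separate, with a log2 fold change of 0.41 ± 0.12 (SE) and a limma adjusted p of 0.18. Of its exon bases 9.91% are shared with Gm45244. Acsl5 was the most abundant member by normalized count, at 4824 ± 317 and 4882 ± 371 (SD, n = 3 each), and overlapped. Acsl4, which prefers arachidonic acid, stood at 588 ± 42.2 and 544 ± 47.7, and Acsl3, of lipid droplet formation, at 371 ± 86.9 and 415 ± 21.9. Per kilobase of exon Acsl5 reached 992 in bone marrow, against 109 for Acsl4, 85.2 for Acsl3 and 51.5 for Acsl1. Acsl4 and Acsl3 overlapped on that scale.

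Glycerolipid assembly held differences of either sign. Gpam, the mitochondrial acyltransferase that begins glycerolipid synthesis, stood at 426, 360 and 333 normalized counts in bone marrow and at 303, 264 and 243 in liver. All liver libraries were below all bone marrow libraries, with a log2 fold change of -0.46 ± 0.14 (SE), a fold interval of 0.580 to 0.910 and a limma adjusted p of 0.18. Dgat2, which adds the last acyl chain to triglyceride, stood at 14.4, 28.3 and 29.7 in bone marrow and at 31.6, 92.4 and 55.4 in liver. Its libraries were separate, but liver replicate 1 lay close to the bone marrow values and the liver libraries spanned 2.92-fold. The log2 fold change was 1.21 ± 0.47 (limma adjusted p = 0.27), from 89 reads in bone marrow and 143 in liver. Dgat1, the other enzyme of this step, stood at 288 ± 42.6 and 312 ± 33.7 (SD, n = 3 each).

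The phospholipid enzymes overlapped between the tissues. Lpcat1, which remodels phosphatidylcholine with saturated chains, had a log2 fold change of -0.49 ± 0.22 (SE), or -0.30 without liver replicate 1, at 200, 159 and 194 normalized counts in bone marrow and 99.8, 169 and 131 in liver. Its tissues overlapped because liver replicate 2 lay above bone marrow replicate 2, and the limma adjusted p was 0.34. Lpcat3, which places polyunsaturated chains into phospholipids, stood at 1561 ± 99.7 and 1525 ± 101 (SD, n = 3 each), a fold change of 0.977 with an interval of 0.861 to 1.11. Of its exon bases 10.2% are shared with Emg1. Agpat3 stood at 390 ± 13.2 and 434 ± 78.4, and Lpin1, a phosphatidate phosphatase, at 471 ± 25.6 and 414 ± 70.3.

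Srebf1, the regulator among the members, overlapped between the tissues. It was at 1704, 1468 and 1529 normalized counts in bone marrow and at 1546, 1562 and 1506 in liver. The log2 fold change was -0.02 ± 0.073 (SE), with a fold interval of 0.874 to 1.11. The transcript level says nothing of the cleaved, active protein, which was not measured.

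Many members shared an order of the liver libraries. Liver replicate 2 was the highest of the 3 liver libraries for 24 of the 36 members (66.7%), against 37.7% of all genes, and replicate 1 the lowest for 22 (61.1%), against 39.1%. The order replicate 1 below 3 below 2 held for 21 members (58.3%, against 26.3% of all genes), 6 of the 9 with separate and higher liver values among them. The summed neutrophil markers had this order in liver, as did macrophage and monocyte markers, at 518, 1414 and 2030 for replicates 1, 3 and 2. Among the latter Ly6c2 (56.3, 748 and 1212), Adgre1 and Mrc1 followed it. Csf1r (121, 95.1 and 163) and Cx3cr1 (172, 213 and 202) did not. Basophil and mast cell markers had the order at 15907, 20755 and 24424, with Gata2 the largest part (10349, 12203 and 13513). Lymphocyte markers had it at 11445, 11590 and 11751 and hepatocyte markers at 2303, 2778 and 3018. Nearly all of these last sums came from Nkg7 and Apoa1. Adipocyte markers had it too, at 1.98, 2.41 and 7.11. Megakaryocyte and platelet markers had the opposite order, at 30389, 20544 and 14016. Neither order was held by stem and progenitor markers (13356, 12709 and 12768) or erythroid markers (4255, 4812 and 4745). The same was true of stellate cell (265, 204 and 250), liver endothelium (48.4, 59.0 and 5.69) and Kupffer cell markers (10.9, 0 and 5.69). Which cells carried the markers was not tested, nor was the part of such cells in the members' values. Fewer cells of a type and less RNA per cell cannot be told apart in such bulk libraries. Without liver replicate 2 the median log2 fold change over the members was -0.04, in place of 0.08, and that of 5 members changed sign, Acacb, Fasn, Elovl6, Elovl7 and Hacd3.

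**Figure D4:**
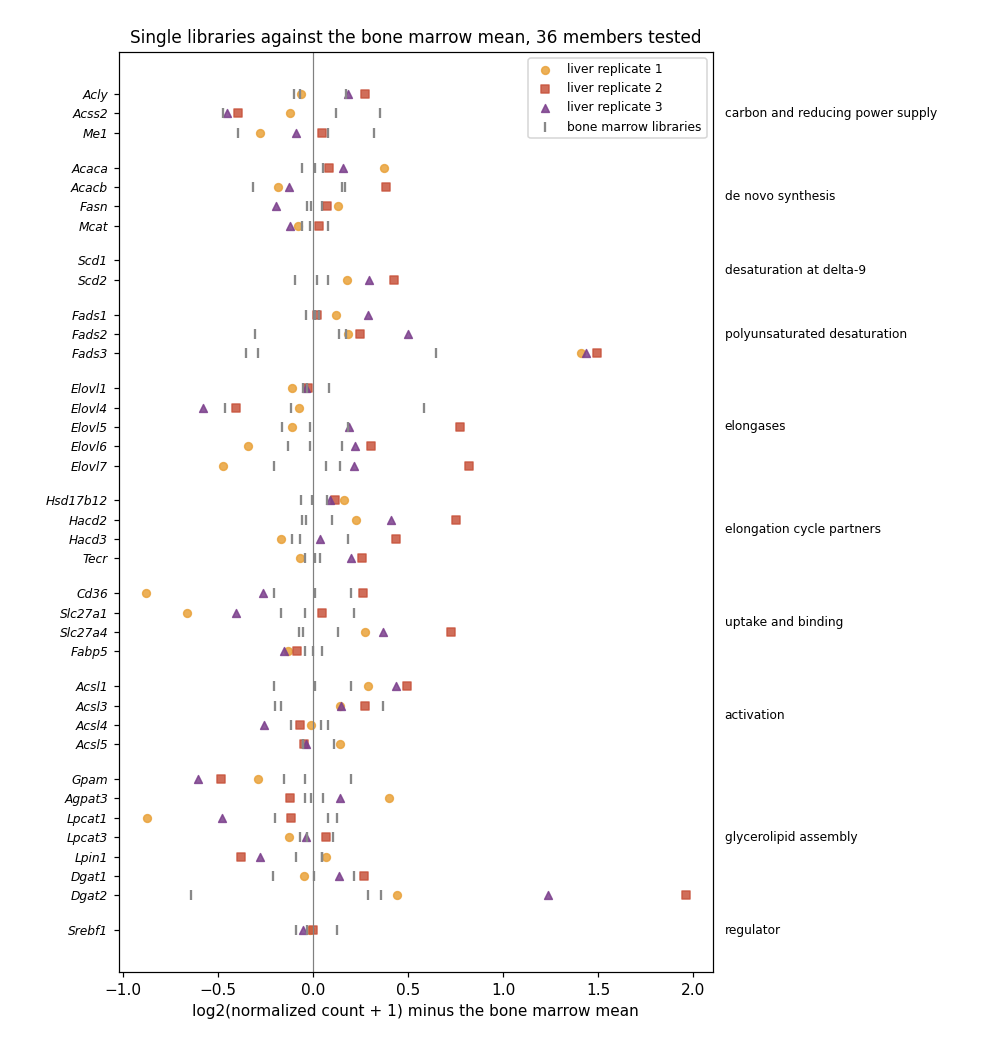
Log2(normalized count + 1) of each liver library (coloured symbols) and each bone marrow library (grey bars) minus the bone marrow mean, for the 36 members tested. Red squares, liver replicate 2, lie furthest right in 24 members, while the 3 liver symbols of Fads3 nearly coincide.

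Of 75 genes of the same pathway outside the member list 53 were tested, and 0 were called by limma or by edgeR. Of these 53, 22 had a positive log2 fold change (41.5%, against 48.4% of all genes), with a median of -0.07. In 6 every liver library lay above bone marrow (11.3%, against 11.4% of all genes) and in 10 below (18.9%, against 10.9%). The 15 regulators among the 53, described below, held 0 of the 22 positive genes and 6 of the 10 that lay below. At an unadjusted p under 0.05 there were 11 of the 53 (20.8%, against 15.7% of all genes). DESeq2 called 4 (7.55%, against 4.35% of all genes), which were Idh1, Gpat4, Slc25a1 and Mboat7. Idh1, the cytosolic isocitrate dehydrogenase that supplies NADPH, came nearest, at 317, 338 and 346 normalized counts in bone marrow and 454, 554 and 488 in liver. Its libraries were separate, and the log2 fold change was 0.57 ± 0.11 (SE) with a limma adjusted p of 0.066. Slc25a1, the carrier that exports citrate from mitochondria for Acly, had the other sign, at 2024 ± 124 in bone marrow and 1675 ± 14.4 in liver (SD, n = 3 each, limma adjusted p = 0.11). Mboat7, which places arachidonic acid into phosphatidylinositol, stood at 1540 ± 58.9 and 1236 ± 46.5 (limma adjusted p = 0.075), with the tissues separate. Gpat4, a microsomal counterpart of Gpam, stood at 788 ± 24.7 and 984 ± 71.4, higher in all 3 liver libraries where Gpam was lower, and passed in neither limma nor edgeR.

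The most distant values of the other sublists were as follows. Mboat1 had a log2 fold change of 0.68 ± 0.32 (SE) and Slc27a3 one of 0.98 ± 0.68, both with overlapping tissues. Acsbg1, an acyl-CoA synthetase, had -1.03 ± 0.48, with 302, 66.8 and 119 normalized counts in liver replicates 1, 2 and 3 against 260 to 306 in bone marrow. Without liver replicate 1, limma called Idh1, Mboat7, Acsbg1 and Mboat1 among these genes and Scd2 among the members, with 427 genes (2.98%) called in all. Mid1ip1, a partner of acetyl-CoA carboxylase, had 0.23 and Degs1, a sphingolipid desaturase, -0.16. All 15 tested regulators of the pathway had negative log2 fold changes in the main limma fit, where 48.4% of all genes were positive. They ran from -0.36 for Insig1, which holds SREBP back in the endoplasmic reticulum, to -8.3e-04 for Mlx, with a median of -0.12. The sign was not stable for all of them. Leaving out single libraries gave a positive value at least once for Scap, Insig2, Mbtps2, Mlx, Ppard, Pparg, Rxra and Rxrb, up to 0.55 for Pparg. With edgeR and DESeq2 Pparg stood at 0.11. In 6 of the 15, against 10.9% of all genes, every liver library lay below bone marrow, Srebf2, Insig1, Mbtps1, Mlxip, Nr1h2 and Usf1, and 0 passed. Several genes typical of hepatocytes and fat cells were scarce or unread in both tissues. Elovl2, Fabp1, Slc27a5 and Thrsp had 0 reads in all 6 libraries, and Fabp4 was at most 4.28 normalized counts.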

How the data were processed

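RNA was sequenced in 3 bone marrow and 3 liver libraries, made with a low-input cDNA kit and tagmentation per the labels' protocols, which does not mark strand. STAR 2.6.0c and DESeq2 1.16.1 under R 3.4.1, after Trimmomatic 0.36 and bcl2fastq 2.19.0, are listed in the submitters' processing notes, which name no build, annotation or counter. The signal values deposited by the authors are reads scaled by a DESeq2 size factor of each library, as the table's name and its values show. In each library 100% of values were whole multiples of the smallest within 0.01, so whole reads were recovered.

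The 14298 genes whose mean reached 10 normalized counts were tested with limma 3.58.1 in R 4.3.3 on log2(normalized count + 1), with a variance trend, no covariate beside tissue, and two-sided p-values adjusted over all genes. This scale understates changes of low genes. edgeR 4.0.16 and DESeq2 1.42.0 were run on recovered reads. Fits were tested on simulated data. The chi-square per degree of freedom between libraries of a tissue was 6.50 to 25.9, so none was taken as a repeat. The members and lists were chosen with earlier results of these data known. Values by library are given for members that passed, were separate with an absolute log2 fold change of at least 0.3 or had the largest of their step. Other pathway genes are named where they passed or were the largest of their sublist. Scd1, Elovl5, Elovl7, Acly, Fasn, Slc27a1, Cd36, Fabp5, Lpcat1, the genes DESeq2 called and the other named regulators were added after their values were seen. Exon lengths, overlaps and positions come from GENCODE M21 (GRCm38) by symbol match, which need not be the annotation behind the counts. A sterol element and an LXR repeat are given by name, E-box and CCAAT by letters. Figures were drawn with matplotlib 3.10.9.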

Additional observations from a re-analysis of the deposited data

How the results depend on the processing

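All members stayed uncalled with edgeR, TMM factors, either other pseudocount (0.5 or 10), without the filter or with one at 50, the replicate number as a block, without both replicate 3 libraries and after thinning to equal depth. With the filter at 50, 4 members had no value. Thinning, and the block without both replicate 3 libraries, were chosen after seeing the data. With DESeq2 2 members, 4 other pathway genes and 622 genes in all were called. Leaving out single libraries gave 0 to 1 members, 0 to 4 other pathway genes and 6 to 427 genes, and a median over members of -0.035 to 0.11. Without both replicate 3 libraries 2 genes were called in all.

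Same-numbered libraries deviated together with correlations of 0.44, 0.40 and 0.058 for replicates 1, 2 and 3. Bone marrow replicate 1 with liver replicate 2 gave -0.38, and bone marrow replicate 2 with liver replicate 1 gave -0.44. The sex-linked transcripts of same-numbered libraries were alike. The labels tell no animals apart and the value for replicate 3 was low, so the main fit took no pairs. Were replicate 3 a pool of replicates 1 and 2, its value could be low with or without pairs. The value for replicate 3 thus cannot decide whether the numbers mark pairs. Whether the numbers mark pairs was not tested. With the replicate block 525 genes were called, 0 of them members and 1 another pathway gene (Idh1, adjusted p = 0.035), and with the block and without both replicate 3 libraries 15. Liver replicate 3 correlated more with bone marrow replicate 2 (0.15) than with its own number.

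Of the 36 members 27 kept the sign of their log2 fold change in every one of the 17 alternatives that gave them a value. The other 9 had log2 fold changes of -0.11 to 0.19. Fasn was -0.0058 with TMM factors, Acacb -0.10 after thinning and Elovl6 -0.030 without both replicate 3 libraries, with or without the block. Leaving out single libraries gave -0.31 to 0.050 for Me1, -0.16 to 0.13 for Acacb, -0.062 to 0.10 for Fasn, -0.062 to 0.26 for Elovl6, -0.13 to 0.52 for Elovl7, -0.068 to 0.24 for Hacd3, -0.045 to 0.070 for Acsl5, -0.083 to 0.018 for Lpcat3 and -0.070 to 0.038 for Srebf1. The cause was not tested. Depth limits Scd1, Fads3, Dgat2, Acacb and Elovl4, whose liver values rest on 9 to 157 reads.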
